A study of Mus musculus with 6 samples.

Results

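Immediate early genes are described here in pancreatic islets of male mice lacking Ucn3 and of their wild-type littermates. The 10 genes, Fos, Fosb, Jun, Junb, Jund, Egr1, Atf3, Ier2, Nr4a1 and Dusp1, were chosen by name from 21813 gene symbols with values. Earlier results of these data were known when they were chosen, so shares and percentiles set beside them are description and no test. Each of the 10 genes had a single transcript row in the table, and all 10 were among the 12652 genes that averaged at least 1 RPKM and were tested. RPKM counts reads per kilobase of transcript, scaled to depth, so that levels of genes of unequal length can be set side by side.

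The groups were 3 Ucn3 null and 3 wild-type animals, all adults of 3 months, with 1 library of islet RNA per animal. Ucn3 encodes urocortin 3, a peptide that mature beta cells release with insulin. The labels give the islets as mixed in cell type, although the extraction protocol also mentions a cell sort. The sources used here do not say how the null allele was made. Islets were freed with collagenase injected through the bile duct before lysis, in both genotypes.

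Immediate early genes are transcribed within minutes of a stimulus such as a growth factor, membrane depolarisation, raised cyclic AMP or stress, from transcription factors already present in the cell, and their mRNAs are short-lived. Many encode transcription factors themselves. Fos and Jun proteins pair to form AP-1, which binds DNA as a dimer. In beta cells, glucose and incretin stimulation are known inducers of this class. The same genes are also known to respond to the handling of tissue.

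Depth, estimated from the steps between low values, lay between 42450000 and 51760000 reads per library. Ucn3 itself was at 136 to 157 RPKM in the wild-type animals and at 1.61 to 1.80 RPKM in the null animals (limma adjusted p = 6.6e-08), so all 6 libraries matched their labels. Beta cell markers were present in every library, with a summed level of 246529 to 285390 RPKM in the wild-type animals and 229901 to 254565 RPKM in the null animals over 8 of 8 markers. In bulk islets, fewer cells of a type and less RNA per cell cannot be told apart.

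All 10 immediate early genes were abundant, and none differed between the genotypes beyond the spread between animals. They differed instead from one wild-type animal to another. Wild type replicate 1 held the highest value of the 6 libraries for 10 of 10 members, as for 24.3% of all genes tested, and wild type replicate 3 the lowest for 10 of 10, as for 5.44%. Both held together for 3.02% of all genes tested. The 3 null libraries lay inside the wild-type range for every member, as for 17.9% of all genes.

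The members moved together across animals. The DNA next to the start sites is shown for those that share a short motif there. Whether the motif has a part in the common movement was not tested. A cyclic AMP response element (CRE) is the site bound by CREB and ATF factors. Its core TGACG, searched on both strands from 250 bases before to 50 after the start, was found in 6 of the 8 members with a promoter in RefSeq's table for build GRCm38.p6, and in 20.8% of its 32851 promoters. Egr1 and Ier2 have no entry there, and Jun and Jund have an entry without the core. The stretches, shown because they hold the core, run 5′ to 3′ on the gene's strand and end at the base before the start, with cores in capitals in either orientation (CGTCA on the opposite strand). They lie at chr12:85473741-85473889 (plus strand) for Fos, chr7:19310046-19310125 (minus) for Fosb, chr8:84978749-84978874 (minus) for Junb, chr1:191183334-191183393 (minus) for Atf3, chr15:101266596-101266845 (plus) for Nr4a1 and chr17:26508473-26508683 (minus) for Dusp1.
Fos: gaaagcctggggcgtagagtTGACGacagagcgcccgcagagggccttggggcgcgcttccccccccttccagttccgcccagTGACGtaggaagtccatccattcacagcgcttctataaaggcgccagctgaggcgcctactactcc
Fosb: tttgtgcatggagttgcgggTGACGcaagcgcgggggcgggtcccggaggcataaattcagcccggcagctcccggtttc
Junb: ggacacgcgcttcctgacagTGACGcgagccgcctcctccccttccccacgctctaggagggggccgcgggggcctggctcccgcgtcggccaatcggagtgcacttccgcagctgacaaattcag
Atf3: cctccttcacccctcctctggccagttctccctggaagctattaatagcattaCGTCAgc
Nr4a1: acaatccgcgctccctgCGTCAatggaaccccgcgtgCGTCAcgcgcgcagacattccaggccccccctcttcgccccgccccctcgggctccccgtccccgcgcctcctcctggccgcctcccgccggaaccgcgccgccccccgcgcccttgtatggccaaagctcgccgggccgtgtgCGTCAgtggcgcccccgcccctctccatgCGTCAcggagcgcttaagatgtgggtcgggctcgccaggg
Dusp1: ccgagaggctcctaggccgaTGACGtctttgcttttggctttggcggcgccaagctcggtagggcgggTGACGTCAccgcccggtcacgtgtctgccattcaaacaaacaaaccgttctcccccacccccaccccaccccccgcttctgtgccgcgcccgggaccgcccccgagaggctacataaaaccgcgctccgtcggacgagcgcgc

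The Nr4a1 stretch holds 4 cores and the Fos stretch 2. Dusp1 holds a full CRE, TGACGTCA, which contains a core on each strand, 143 bases before the start. A full CRE was found in 1 of 8 members and in 1.79% of all promoters. The EGR site GCGGGGGCG was found in Fosb and Nr4a1 and in 2.91% of all promoters. The AP-1 site TGANTCA, the NR4A site AAAGGTCA and the CArG box, bound by serum response factor, were found in 0 of 8 members and in 7.81%, 1.51% and 1.63% of all promoters. Sites beyond these windows were not searched, so this does not show that the genes lack them. Member windows had a median GC content of 65.0% against 52.7% for all promoters, and the motifs searched differ in their own C and G content. A match describes these letters and not a bound site.

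The Fos and Jun families supply the subunits of AP-1. Fos, the founding partner of Jun in AP-1, was at 592, 499 and 217 RPKM in wild type (replicates 1 to 3) and at 389, 416 and 543 RPKM in Ucn3 null replicates 1 to 3. Fosb, a second Fos family subunit, was at 285, 157 and 70.9 RPKM in the wild-type animals and at 181, 161 and 232 RPKM in the null animals, in the same order of libraries. For both genes null replicate 3 stood second to wild type replicate 1, and the groups overlapped. Fos averaged 436 ± 196 RPKM in the wild-type animals and 449 ± 82.6 RPKM in the null animals (SD, n = 3 each), with a log2 difference of 0.15 (SE 0.36, limma adjusted p = 0.93). Fosb averaged 171 ± 108 and 191 ± 36.8 RPKM (SD, n = 3 each), with a log2 difference of 0.36 (SE 0.44, limma adjusted p = 0.85), the greatest of the 10 members in size. A positive difference means a higher level in null islets, and all differences are of log2(RPKM + 1).

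Jun, the main dimer partner of Fos, was at 338, 266 and 122 RPKM in wild type (replicates 1 to 3) and at 230, 219 and 255 RPKM in null replicates 1 to 3. Junb was at 185, 150 and 59.4 RPKM in the wild-type animals and at 111, 100 and 128 RPKM in the null animals. Jund, the Jun family member known for steady expression in resting cells, was at 121, 96.3 and 50.4 RPKM in the wild-type animals and at 81.9, 80.4 and 94.8 RPKM in the null animals. The 3 Jun genes ranked the 6 libraries identically: wild type replicates 1 and 2, then null replicates 3, 1 and 2, then wild type replicate 3. Their log2 differences were 0.08 (SE 0.34) for Jun, -0.07 (SE 0.38) for Junb and 0.03 (SE 0.29) for Jund, with limma adjusted p of 0.97, 0.97 and 0.98. Jund had the narrowest wild-type range of the members, a ratio of 2.39 between the highest and lowest library.

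Egr1, a zinc finger transcription factor, was at 333, 220 and 102 RPKM in wild type (replicates 1 to 3) and at 225, 201 and 255 RPKM in null replicates 1 to 3. Nr4a1, an orphan nuclear receptor also called Nur77, was at 73.4, 37.9 and 19.0 RPKM in the wild-type animals and at 47.7, 36.9 and 50.3 RPKM in the null animals. Null replicates 3 and 1 lay above wild type replicate 2 for both, and null replicate 2 lay below it. The log2 differences were 0.21 for Egr1 (SE 0.38, limma adjusted p = 0.91) and 0.24 for Nr4a1 (SE 0.42, limma adjusted p = 0.90). Ier2, which encodes a small nuclear protein, was at 113, 97.5 and 39.7 RPKM in the wild-type animals and at 73.5, 62.7 and 79.2 RPKM in the null animals (log2 difference -0.09, SE 0.35, limma adjusted p = 0.96). Its libraries fell in the order of the Jun genes.

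Dusp1 encodes a phosphatase that inactivates MAP kinases and so opposes the signal that induces this class. It was at 188, 136 and 60.1 RPKM in wild type (replicates 1 to 3) and at 121, 112 and 148 RPKM in null replicates 1 to 3 (log2 difference 0.13, SE 0.37, limma adjusted p = 0.95). Averaged over each group, it stood at 128 ± 64.2 RPKM in the wild-type animals and 127 ± 18.6 RPKM in the null animals (SD, n = 3 each). Its profile was the nearest to the average of the 10 members, at a mean distance of 0.0692 SD per library after each gene was scaled to its own mean and SD.

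Atf3, a stress-induced factor of the ATF/CREB family, departed most from the other 9 members. It was at 204, 106 and 47.5 RPKM in wild type (replicates 1 to 3) and at 143, 58.6 and 99.7 RPKM in null replicates 1 to 3. Null replicate 1 was the highest null library for Atf3, as it was for 18.3% of all genes tested, whereas null replicate 3 was for the other 9 members and for 65.1% of all genes. In lists described below, null replicate 1 was also highest for 30 of 43 other immediate early genes and 11 of 12 heat shock genes. These counts were made after the values were seen, so this trait is not particular to Atf3 among genes of the class. The distance of Atf3 from the average profile was 0.398 SD, against at most 0.226 SD for the others. Relative to the mean of the other members on the log2 scale, Atf3 stood at 0.08 in null replicate 1 and at -1.05 in null replicate 2. Its log2 difference between genotypes was -0.10 (SE 0.52, limma adjusted p = 0.97), and the groups overlapped. With the acinar marker level as a covariate it was -0.55 (limma adjusted p = 0.98). Acinar markers summed to 474 to 5969 RPKM in the wild-type and 4366 to 21829 RPKM in the null animals. The covariate thus runs partly with genotype.

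**Figure D1:**
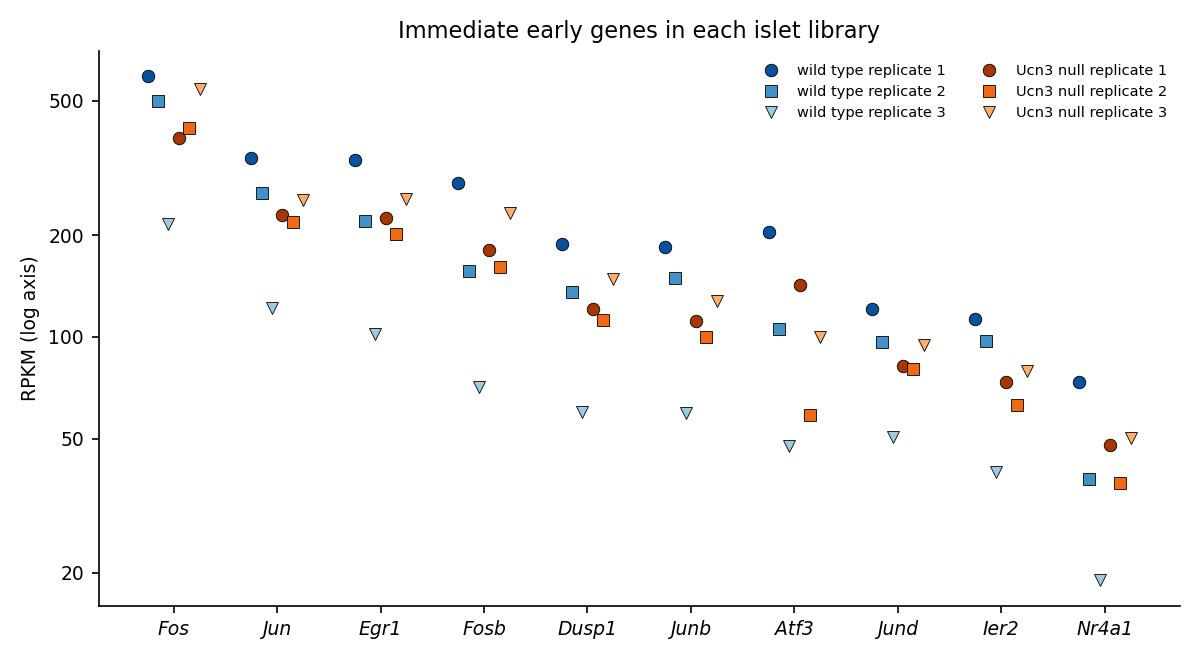
RPKM (log axis) of each immediate early gene in each of the 6 libraries, with genes ordered by mean level; blue points are wild type and orange points Ucn3 null, 1 point per animal. For every gene wild type replicate 1 is the highest point and wild type replicate 3 the lowest, and the 3 null libraries lie between them.

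Some members kept their place in the order of levels, compared per length in RPKM, and others did not. Fos was the highest member in 6 of 6 libraries, Fosb the fourth in 6 of 6 and Nr4a1 the lowest in 6 of 6. Jun stood above Egr1 in every library except null replicate 3, and their means of 238 and 223 RPKM over the 6 libraries lay closer together than the SD of either between animals. Dusp1 and Junb exchanged places between libraries (means of 127 and 122 RPKM), as did Jund and Ier2 (87.4 and 77.6 RPKM). Atf3 was the least fixed, in place 5 in wild type replicate 1 and null replicate 1 and in place 9 in null replicate 2. Among the 12652 genes, Fos ranked between 23 and 65 by RPKM, depending on the library. Nr4a1 ranked from 390 in wild type replicate 1 to 2113 in wild type replicate 3.

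The values rest on many reads. By the estimated depth, the smallest member value, Nr4a1 in wild type replicate 3, stands for about 2270 reads, and Fos in null replicate 3 for about 53340. Counting error is therefore small beside the differences between animals. Transcripts of the members were 1522 to 3782 bases long, with a median of 2049, against 2682 for the 12430 tested genes with a matched length. Jun, Junb, Jund and Ier2 have 1 exon, as do 5.03% of those genes, and the other 6 members have 3 to 7.

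The study's comparison asked which transcripts differ between Ucn3 null and wild-type islets. Of the 10 members, 0 reached the threshold (limma, adjusted p of 0.05) and 0 had an unadjusted p under 0.05. Over all genes tested, 0.0158% passed the adjusted threshold and 9.36% the unadjusted one. The groups overlapped for 10 of 10 members, while they did not overlap for 15.2% of all genes. The members' log2 differences ran from -0.10 for Atf3 to 0.36 for Fosb, 7 positive and 3 negative, with a median of 0.10, beside a median of -0.03 over all genes and a positive sign in 38.3% of them. In exact two-sided permutation tests over samples, the members had p of 0.7 to 1.0, where 3 against 3 cannot go below 0.1.

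The intervals were wide, so a lack of a call does not show equal levels. The limma 95% intervals of the 10 differences began between -1.31 and -0.64 and ended between 0.70 and 1.39. As ratios of null to wild type on the RPKM + 1 scale, the interval for Fos ran from 0.63 to 1.97 and that for Jund, the narrowest, from 0.64 to 1.62. That for Atf3, the widest, ran from 0.40 to 2.16. A 2-fold higher level of Fosb, Egr1, Atf3 or Nr4a1 in null islets therefore lies within the intervals.

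The sign of the differences depended on single animals. Without wild type replicate 1, all 10 members were positive, from 0.20 to 0.84 (smallest limma adjusted p = 0.36). Without wild type replicate 3, all 10 were negative, from -0.64 to -0.16 (smallest limma adjusted p = 0.47). Without Ucn3 null replicate 2, all 10 were positive, from 0.01 to 0.48 (smallest limma adjusted p = 0.96). No member passed with any single library left out.

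**Figure D2:**
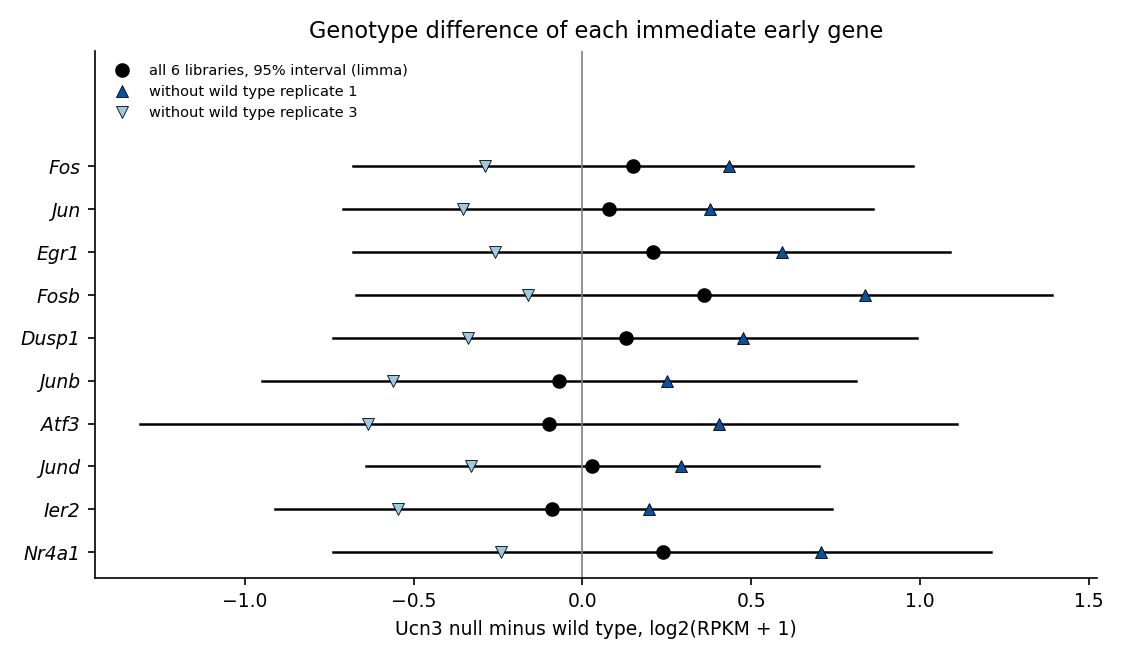
Difference of each immediate early gene between Ucn3 null and wild-type islets on the log2(RPKM + 1) scale (x axis), with black points for all 6 libraries and black lines for limma's 95% intervals. Triangles give the difference without wild type replicate 1, from 0.20 to 0.84, and without wild type replicate 3, from -0.64 to -0.16; every interval contains 0.

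Within wild type, the highest library exceeded the lowest by 2.39-fold for Jund to 4.29-fold for Atf3, with a median of 3.12 over the members. The ratio was at least 2 for 10 of 10 members and for 4.29% of all genes, whose median ratio was 1.18. Wild type replicate 1 itself exceeded replicate 3 by at least 2-fold for 10 of 10 members and for 2.70% of all genes. Within null islets the ratio was 1.16 for Jun to 2.43 for Atf3, with a median of 1.30, beside 1.17 over all genes. Only Atf3 reached 2 there, as did 3.27% of all genes. For 10 of 10 members the wild-type range was the wider, although with 3 animals a group the difference in spread was not tested.

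Taken as a ratio, the gap below wild type replicate 2 was wider than the gap above it for every member. In RPKM the gap above was the wider for Fosb, Atf3 and Nr4a1. Wild type replicate 2 exceeded replicate 3 by 1.91-fold for Jund to 2.52-fold for Junb, and by at least 2-fold for 8 of 10 members, as it did for 0.822% of all genes. Wild type replicate 1 exceeded replicate 2 by 1.16-fold for Ier2 to 1.94-fold for Nr4a1, so without replicate 3 no member kept a 2-fold range. Averaged over the members, log2(RPKM + 1) came to 7.69, 7.17 and 6.04 in the wild-type animals (replicates 1 to 3) and to 7.09, 6.85 and 7.24 in the null animals. Group means of these averages were 6.97 ± 0.85 for the wild-type and 7.06 ± 0.20 for the null animals (SD, n = 3 each). The median over all genes stayed between 2.80 and 2.90 in the 6 libraries.

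Each member's SD within genotypes, 0.47 to 0.86 on the log2 scale, placed it between the 97.5 and 99.2 percentile of all genes tested, whose median SD was 0.11. The SD shrank once the class was followed as a whole. For Dusp1 the SD over the 6 libraries was 0.55 alone and 0.06 relative to the mean of the other 9 members, and for Egr1 it was 0.57 and 0.08. Atf3 kept the greatest relative SD, 0.42 of 0.77.

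**Figure D3:**
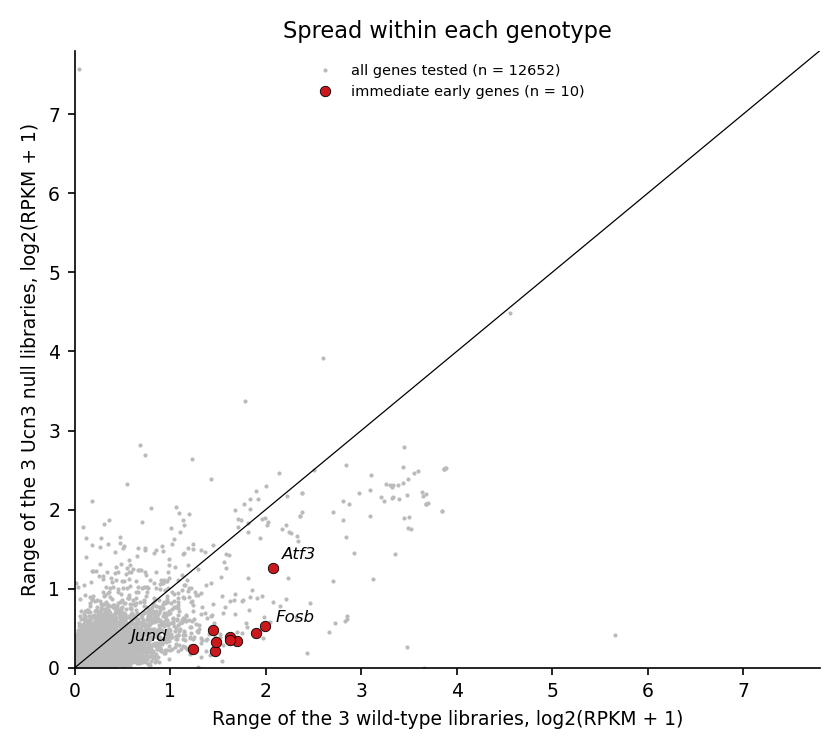
Range between the highest and lowest library within wild type (x axis) and within Ucn3 null (y axis), each on the log2(RPKM + 1) scale, for 12652 genes tested (grey) and the 10 immediate early genes (red); the line marks equal ranges. All 10 red points lie below the line, with Atf3 the highest of them.

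Markers of other cell types also varied between the same libraries. The summed level of 8 of 9 listed macrophage and dendritic markers found in the table was 62.1, 35.9 and 25.8 RPKM in wild type replicates 1 to 3 and 20.4, 36.5 and 23.2 RPKM in null replicates 1 to 3. The 5 of 5 listed B and T cell markers summed to 14.7, 10.4 and 6.56 RPKM and to 4.94, 9.46 and 9.43 RPKM in the same libraries. Of the 5 B and T cell markers, 2 averaged at least 1 RPKM. Both sums fell in the order of replicates 1, 2 and 3 in the wild-type animals and were highest in replicate 2 in the null animals. Red blood cell markers (4 of 4) summed to 85.7 to 453 RPKM in the wild-type animals and 78.2 to 350 RPKM in the null animals. Acinar markers (13 of 13) summed to 474 to 5969 RPKM in the wild-type animals and 4366 to 21829 RPKM in the null animals, with the lowest value in wild type replicate 2. Endothelial markers (7 of 7) varied little. They summed to 93.5, 85.5 and 86.1 RPKM and to 89.1, 84.7 and 95.6 RPKM in wild type and null replicates 1 to 3. Alpha markers (4 of 4) summed to 8813, 8316 and 9274 RPKM and to 6314, 8180 and 10575 RPKM in the same libraries. Ppy, the PP cell marker, was at 4166, 2994 and 3123 RPKM and at 1624, 2631 and 5133 RPKM. Stellate and fibroblast markers (7 of 7) summed to 14.7, 7.09 and 11.3 RPKM and to 8.02, 11.5 and 9.41 RPKM. Delta and ductal sums did not overlap between the genotypes. Delta markers (4 of 4) summed to 1747 to 2405 RPKM in the wild-type and 683 to 1083 RPKM in the null animals. Ductal markers (7 of 7) summed to 239 to 308 and 185 to 231 RPKM. No marker of these lists found in the table was at 0 in any library. The part of these cells in the immediate early gene levels was not tested.

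Other immediate early genes, from a list of 48 of which 43 were tested, mostly had the same highest and lowest animals. For 30 of 43, wild type replicate 1 was the highest of the 6 libraries and wild type replicate 3 the lowest, as for 3.02% of all genes. Between genotypes 0 of 43 passed in limma and 2 had an unadjusted p under 0.05, with 20 positive and 23 negative differences and a median of -0.05. Over all genes tested, 0.0158% passed, 9.36% had such a p and 38.3% were positive. The 4 most abundant were Btg2, an antiproliferative gene, Rhob, a small GTPase, Zfp36, a protein that destabilises short-lived mRNAs, and Ppp1r15a, a phosphatase subunit of the integrated stress response. Btg2 was at 151, 127 and 56.5 RPKM in wild type (replicates 1 to 3) and at 96.2, 97.9 and 130 RPKM in null replicates 1 to 3. Zfp36 averaged 74.3 ± 34.8 and 63.5 ± 8.82 RPKM and Rhob 83.5 ± 26.6 and 72.0 ± 15.5 RPKM in the wild-type and the null group (SD, n = 3 each).

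The smallest p in that list belonged to Pim1, a serine/threonine kinase, and Zfp36l1, a relative of Zfp36. Pim1 was at 5.18, 4.19 and 4.03 RPKM in the wild-type animals and at 3.27, 2.94 and 3.91 RPKM in the null animals (log2 difference -0.32, SE 0.11, limma adjusted p = 0.49). Zfp36l1 was at 8.23, 6.12 and 4.65 RPKM in the wild-type animals and at 4.60, 3.92 and 4.31 RPKM in the null animals (log2 difference -0.45, SE 0.16, limma adjusted p = 0.49). Neither passed the threshold. Their groups did not overlap, which held for 2 of 43 in the list, a smaller share than the 15.2% of all genes. Egr2, Egr4, Nr4a3, Ier5l and Ptgs2 averaged under 1 RPKM and were not tested.

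Among AP-1, ATF and CREB partners, 19 of 23 were tested, 0 passed in limma and 0 had an unadjusted p under 0.05, with a median difference of -0.02. The shares over all genes that passed and that had such a p were 0.0158% and 9.36%. Of the 19, 7 were highest in wild type replicate 1 and lowest in replicate 3, as were 3.02% of all genes. Ddit3, the stress factor also called CHOP, had the highest mean over the 6 libraries and was highest in null replicate 3, at 126, 66.7 and 31.2 RPKM in the wild-type animals and 80.6, 91.7 and 127 RPKM in the null animals (log2 difference 0.60, SE 0.45, limma adjusted p = 0.71). Its highest over lowest ratio within wild type was 4.04, close to that of Atf3. Atf4, which acts upstream of Ddit3 and Atf3 in the integrated stress response, stood above Ddit3 in the wild-type mean and varied only 1.34-fold within wild type, at 89.5 ± 13.1 and 83.6 ± 8.80 RPKM (SD, n = 3 each). Mafa, a beta cell factor, was at 69.8 ± 15.9 and 74.7 ± 27.2 RPKM and Atf5 at 53.6 ± 8.45 and 49.4 ± 8.83 RPKM in the wild-type and the null group (SD, n = 3 each). Crem and Mafg had the smallest p, with log2 differences of -0.13 and 0.15 (limma adjusted p = 0.63 and 0.68).

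Genes of the MAP kinase and serum response factor pathway include kinases that carry the inducing signal. Of 27 tested, 1 was highest in wild type replicate 1 and lowest in replicate 3, near the 3.02% of all genes, and the ratio within wild type reached 2 for 1. Between genotypes 0 of 27 passed in limma, 1 had an unadjusted p under 0.05, with 22 positive and 5 negative differences and a median of 0.03. Over all genes 38.3% were positive, 9.36% had such a p and 0.0158% passed. The groups did not overlap for 5 of 27, near the 15.2% of all genes. Mapk3, which encodes ERK1, was at 50.3 ± 2.43 RPKM in the wild-type animals and 46.7 ± 1.29 RPKM in the null animals (SD, n = 3 each). Araf, a kinase that acts above it, was at 55.7 ± 6.61 and 57.7 ± 5.04 RPKM, and Map2k7, which activates JNK, at 22.7 ± 1.89 and 24.2 ± 2.64 RPKM (SD, n = 3 each). Rps6ka2, an S6 kinase downstream of ERK, had the smallest p, at 21.7, 18.7 and 21.6 RPKM in the wild-type animals and 24.2, 26.3 and 25.1 RPKM in the null animals (log2 difference 0.28, SE 0.08, limma adjusted p = 0.49). Elk1 followed, with a log2 difference of 0.18 (limma adjusted p = 0.56).

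Among the other DUSP phosphatases, 10 of 11 were tested, 0 passed in limma, 0 had an unadjusted p under 0.05, and the median difference was -0.05. Of all genes tested, 0.0158% passed and 9.36% had such a p. Dusp5, specific for ERK, was the most abundant of them, at 38.3, 15.6 and 11.1 RPKM in the wild-type animals and 24.6, 18.7 and 26.0 RPKM in the null animals (log2 difference 0.26, SE 0.39, limma adjusted p = 0.88). Of the 10, 4 were highest in wild type replicate 1 and lowest in replicate 3, as were 3.02% of all genes. The ratio within wild type reached 2 for 4 of 10, as for 4.29% of all genes. Dusp5 varied 3.45-fold and Dusp4 2.29-fold within wild type, Dusp6 and Dusp10 1.82-fold and 1.83-fold, and Dusp3 only 1.06-fold. Dusp4 and Dusp16 had the smallest p, with log2 differences of 0.38 and -0.15 (limma adjusted p = 0.59 and 0.72).

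Heat shock genes are known to be induced when cells are handled. Of 12 tested, 8 were highest in wild type replicate 1 and lowest in replicate 3, as were 3.02% of all genes, and the other 4 were not. In this list 0 passed in limma between genotypes and 0 had an unadjusted p under 0.05 (median difference 0.02). The corresponding shares of all genes were 0.0158% and 9.36%. Hspa1a, an inducible HSP70, was at 368, 303 and 160 RPKM in the wild-type animals and at 322, 211 and 259 RPKM in the null animals. Hspa1b is a near-identical copy whose reads can be shared, and its values were close to those of Hspa1a, from 159 to 359 RPKM. Hspa8, the constitutive HSP70, was at 299 ± 41.1 and 282 ± 46.8 RPKM and the mitochondrial co-chaperonin Hspe1 at 99.8 ± 15.5 and 98.5 ± 21.5 RPKM (SD, n = 3 each). Hspb1 and Hsp90aa1 had the smallest p, with log2 differences of -0.46 and -0.16 (limma adjusted p = 0.68 and 0.83).

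**Figure D4:**
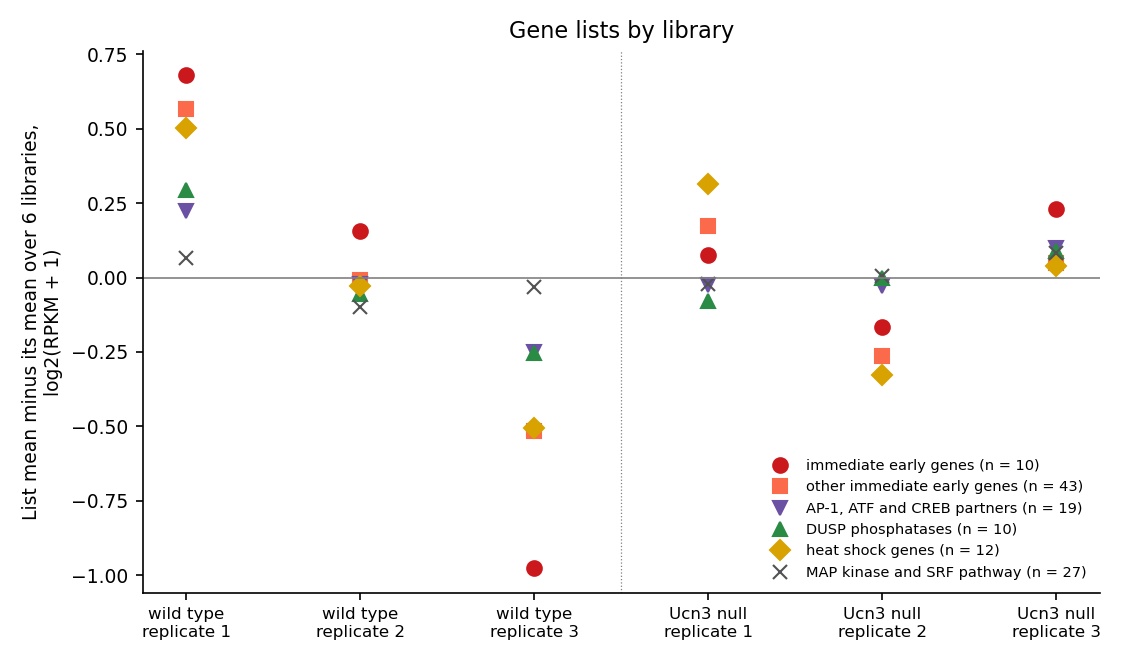
Mean log2(RPKM + 1) of the tested genes of each list in each library, minus the mean of the list over the 6 libraries (y axis), with 1 marker per list. The immediate early genes (red circles) are highest in wild type replicate 1 and lowest in wild type replicate 3, and the MAP kinase and SRF list (crosses) stays near 0 in all 6.

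The genes nearest to the members' average profile were ranked over the 6 libraries among 329 genes with a mean of at least 5 RPKM and an SD of at least 0.3, which include the 10 members. Nearest were Ppp1r15a, Klf10, Arc, Herpud1 and Btg2, at mean distances of 0.126, 0.139, 0.148, 0.159 and 0.172 SD, against a median of 0.844 SD. The 3 of them with a promoter entry, Ppp1r15a, Herpud1 and Btg2, all held the core TGACG, as did 20.8% of all promoters. Arc, a gene of neuronal activity, was at 11.6, 8.03 and 2.74 RPKM in the wild-type animals and at 9.08, 6.42 and 8.34 RPKM in the null animals. Herpud1, a gene of the endoplasmic reticulum stress response, was at 129, 89.2 and 57.8 RPKM in the wild-type animals and at 98.3, 85.5 and 114 RPKM in the null animals, and was the only 1 of these 5 outside the lists above. In both genes the wild-type animals spanned the null animals, as in the members and in 17.9% of all genes tested. This follows from ranking genes by nearness to the members' profile and is no separate result.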

How the data were processed

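Islet RNA of 3 Ucn3 null and 3 wild-type mice was made into libraries with a TruSeq kit, per the labels' protocols. The authors deposited RPKM values, 1 row per RefSeq transcript. STAR, bedtools, DESeq and the mouse build mm9 are named, without versions, per the submitters' processing notes. The counting rule, the use of strand and the reads behind the depth term are not given in the sources used here.

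Of 28129 rows, 118 without a number in every library were left out. Each symbol was represented by its transcript of highest mean. Those with a mean of 1 RPKM or more were tested on log2(RPKM + 1) with limma 3.58.1 in R 4.3.3 (genotype as the only term, mean trend, two-sided, Benjamini-Hochberg adjustment over 12652 genes, threshold 0.05). The pseudocount understates the change of low genes. The fit was tested on simulated data.

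The members and lists were chosen with earlier results of these data known. Of each further list, the 4 genes of highest level and the 2 of smallest p were named, with the 5 genes nearest to the members' profile. One of these genes is not reported here. Cell type markers were summed from fixed lists. Depth came from low RPKM values times GENCODE M21 transcript lengths, of which 76.4% to 77.9% were whole within 0.1 read, so reads are estimates. Each library is 1 animal. Alternatives covered the pseudocount, filters, scaling, an acinar covariate, the mean trend, the transcript choice and leaving out each library.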

Additional observations from a re-analysis of the deposited data

How the results depend on the processing

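No member passed under any of the 14 alternatives. The count of genes past the threshold, 2 in the comparison as reported, was 4 without a filter, 1 with a mean of at least 5 RPKM, 1 with the acinar covariate, and 1 to 5 with 1 library left out (5 without Ucn3 null replicate 1, 1 without Ucn3 null replicate 2). Fewer or more genes were tested under the filters, and for the others the cause was not tested. The median difference of the members was 0.05 to 0.17 with all libraries and -0.334 to 0.419 with 1 left out. Of 140 gene values under alternatives, 17 changed sign, 16 of them with a library left out. The other was Nr4a1 with the acinar covariate (-0.076). With 1 library left out the ranges were -0.635 to 0.404 for Atf3, -0.338 to 0.476 for Dusp1, -0.259 to 0.590 for Egr1, -0.289 to 0.435 for Fos, -0.161 to 0.836 for Fosb, -0.546 to 0.196 for Ier2, -0.354 to 0.379 for Jun, -0.560 to 0.251 for Junb, -0.330 to 0.291 for Jund and -0.240 to 0.708 for Nr4a1. The gap between wild type replicates 1 and 3 in the members' mean, 1.656 on the log2 scale, was 1.656 to 1.703 under other pseudocounts, scalings and transcript choices, added after the data were seen. No paired analysis was possible because no label ties a null animal to a wild-type one. How depth limits the calls was not tested.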

Other observations

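Null replicate 3 was the highest null library for 9 of 10 members, as for 65.1% of all genes tested. Null replicate 1 was the highest null library for 30 of 43 other immediate early genes and for 11 of 12 heat shock genes, as for 18.3% of all genes, and among the members for Atf3 alone. In the other lists null replicate 3 was the highest null library for 20 of 27 MAP kinase and SRF genes, 10 of 19 AP-1, ATF and CREB partners and 4 of 10 DUSP phosphatases. These counts were made after the values were seen, and the difference between the lists was not tested.

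The following genes were chosen after their values were seen. Npas4, a transcription factor induced by calcium entry, was at 20.6, 5.75 and 3.56 RPKM in wild type (replicates 1 to 3) and at 17.0, 4.48 and 7.87 RPKM in null replicates 1 to 3. Gem, a small GTPase that restrains calcium channels, was at 26.0, 9.38 and 4.72 RPKM in the wild-type animals and at 19.7, 8.48 and 15.0 RPKM in the null animals. Errfi1, an inhibitor of the EGF receptor, was at 29.1, 13.1 and 7.57 RPKM and at 28.0, 12.2 and 16.3 RPKM. In all 3, wild type replicate 1 and null replicate 1 were the highest of their groups. The co-chaperone Dnaja1 had the same high animals, at 71.3, 35.0 and 25.9 RPKM in the wild-type animals and at 59.3, 37.3 and 47.2 RPKM in the null animals. Between genotypes none of the 4 passed, with log2 differences of 0.13, 0.32, 0.29 and 0.22 for Npas4, Gem, Errfi1 and Dnaja1 (limma adjusted p = 0.97, 0.90, 0.89 and 0.89). The acinar marker sum was 5969, 474 and 2279 RPKM in the wild-type animals and 21829, 12553 and 4366 RPKM in the null animals. Its part in the levels of these 4 genes was not tested.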
